A study of Mus musculus with 4 samples.

Results

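The potassium channel genes of the mouse were examined for DNA methylation in E11.5 brains of Tet1 wild-type and Tet1 knockout embryos. They were taken as every autosomal protein-coding gene of the GENCODE vM21 annotation whose symbol starts with Kcn, which gave 92 of 20807 autosomal protein-coding genes. A further 2 Kcn genes lie on the X chromosome and were not included. The rule used names and not measured values. Each gene was read in 3 places: the start window, 1 kb on each side of the 5′ end of the gene record; the flanks, from 1 to 3 kb upstream and from 1 to 3 kb downstream of that point, pooled; and the gene body, the rest of the annotated span beyond 3 kb from the start.

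Potassium channels let potassium ions leave the cell, which sets the resting potential and ends the action potential. The voltage-gated (Kv) pore subunits open on depolarization, the silent Kv subunits form channels only together with other Kv pores, and the auxiliary subunits of the Kcnab, Kcne and Kcnip groups change how Kv pores open or reach the membrane. Inward rectifiers (Kcnj) and tandem-pore leak channels (Kcnk) hold the membrane at rest, and the Kcnma1, Kcnn and Kcnt pores open with internal calcium or sodium. Most of these genes are known for their roles in mature neurons, glia and muscle. TET1 oxidizes methylated cytosine, a step towards its removal, and bisulfite sequencing reads both methylated and hydroxymethylated cytosine as methylated.

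Whole-genome bisulfite sequencing was done on 4 brains, 1 from each of 4 groups, so no group had a replicate. All 4 embryos were male and of the strain 129S6.cg Tet1<tm1Koh>, whose Tet1 allele carries a cassette at the first coding ATG. They were either knockout (KO) or wild type (WT), from heterozygous dams fed a semi-purified diet with folic acid at 30 ppm (excess) or 3 ppm (control), both with the antibiotic succinylsulfathiazole. The aim was to see how loss of TET1 and excess maternal folic acid act on methylation, alone and together. The libraries came from single embryos of 4 different litters. A sample list of the study for another assay gives the same embryo numbers with a neural tube defect in both KO embryos and in neither WT embryo, so genotype and defect cannot be told apart here, and KO and WT embryos of a diet were not littermates. Transcripts were not measured in these libraries, so the genotype labels were not checked against Tet1 RNA. In E11.5 brains the paper detected no TET1 protein by Western blot in WT or KO. By quantitative PCR it found no full-length Tet1 transcript in KO brains, and a short Tet1 transcript at low levels in WT and KO.

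The files gave mean depths per autosomal CpG of 13.2 reads (KO, 30 ppm), 14.3 reads (WT, 30 ppm), 21.2 reads (KO, 3 ppm) and 16.2 reads (WT, 3 ppm). Levels were computed over the 14907672 autosomal CpGs that 5 or more reads covered in each library, as methylated reads in percent of all reads of a region. A region needed at least 3 such CpGs. This left 89 potassium channel genes with a start window (not Kcnc4, Kcnk3 and Kcnk4), 92 with flanks and 89 with a body, and 86 with all 3. The median gene was read at 17, 36 and 251 CpGs in these regions, with 177 to 298 reads per library in the start window, 444.5 to 715.5 in the flanks and 2860 to 4696 in the body. A start window can hold many more CpGs than were measured. The reference has 187 CpGs in that of Kcnc4 and 140 in that of Kcnk3, both left out, so levels describe the measured CpGs only. The start windows of the neural genes Sox1, Sox2, Pax6, Nes and Neurog2 lay between 0 and 2.83% in all 4 libraries. Those of the blood genes Ptprc and Spi1 lay between 85.6 and 90.7%, while the mesenchymal genes Prrx1, Twist1 and Tbx18 were also low, at 0.384 to 12.96%. The haemoglobin genes, each read on 3 CpGs and 24 to 62 reads, were lower in KO than in WT: Hbb-bt read 75.0% and 89.7% at 30 ppm, then 75.8% and 86.2% at 3 ppm, and Hba-a1 read 69.2% and 70% and then 57.4% and 82.5%. The endothelial genes Cdh5, Pecam1 and Tek lay between 74.4 and 93.7%, with Tek reading 83.9% against 74.4% in WT under the control diet. The part of blood or vessel cells in the results was not tested. No transcript level stood beside these values.

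A gene was called where Fisher's exact test on the methylated and unmethylated reads of 2 libraries gave a Benjamini-Hochberg adjusted p under 0.05 over all genes and the levels differed by at least 10 percentage points. Such a test compares these 2 libraries, not the conditions, and reads over neighbouring CpGs are not independent. Where a pair of levels is given without labels, KO stands first, and of 2 pairs in a row the first is from 30 ppm and the other from 3 ppm. Intervals are 95% Wilson intervals and cover counting error only.

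At their start sites the potassium channel genes were more methylated in both KO brains than in the WT brains. The median start window stood at 47.1% in KO against 29.1% in WT under excess folic acid, and at 49.4% against 30.0% at 3 ppm. Over all genes the medians were 46.2% against 37.5% and 45.97% against 37.3%. At 30 ppm 27 of 89 start windows were called higher in KO (30.3%, where 15.4% of all genes were called), and at 3 ppm 33 of 89 (37.1%, where 16.6% of all genes were called). None was called lower at either diet, where 0.331% and 0.381% of all genes were. At both diets 20 of 89 were called higher (22.5%, against 8.01% of all genes). The median difference between KO and WT was 7.35 percentage points at 30 ppm and 6.56 at 3 ppm, beside 3.93 and 3.31 over all genes. KO lay above WT at both diets in 70 of the 89 genes (78.7%, against 61.5% of all genes) and below at both in 2 (2.25%, against 9.0%). When each gene's test statistic was divided by a robust SD over all genes, as a guard against reads that are not independent, only 2 and 3 start windows were still called, or 2.25% and 3.37% of the potassium channel genes against 2.11% and 1.94% of all genes. Kcnab1 was still called at both diets, while Kcna5, Kcna6, Kcnj4, Kcnj15, Kcnk9, Kcnk15 and Kcnt1 were called at neither. With reads thinned to the depth of the shallowest library the counts were 25 and 27, or 28.1% and 30.3% against 15.9% and 13.6% of all genes.

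Single CpGs showed the same lean. Of the 1754 CpGs in these start windows, 610 (34.8%) were higher in KO at both diets and 110 (6.27%) were lower at both, where 25.1% and 7.02% of the CpGs in all start windows were.

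The sequence under 3 of the called start windows follows, because these stretches hold CpGs behind the start values of a Kv pore, a Kv auxiliary subunit and a sodium-activated pore. Each is the 300 bases of the window, outside untranslated exon sequence, with the most measured CpGs, and each is written on the strand of its gene in the GRCm38 (mm10) build, 5′ to 3′. Every CG is in capitals. The Kcna5 stretch is chr6:126534423-126534722 (minus strand, touching an exon), that of Kcnab1 chr3:65109783-65110082 (plus strand, touching an exon) and that of Kcnt1 chr2:25864261-25864560 (plus strand, intron).
Kcna5: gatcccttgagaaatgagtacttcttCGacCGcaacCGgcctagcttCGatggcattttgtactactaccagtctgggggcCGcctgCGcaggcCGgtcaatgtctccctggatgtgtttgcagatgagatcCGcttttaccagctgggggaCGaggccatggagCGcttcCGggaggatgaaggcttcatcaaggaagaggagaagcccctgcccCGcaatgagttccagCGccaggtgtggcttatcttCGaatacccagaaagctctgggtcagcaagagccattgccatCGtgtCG
Kcnab1: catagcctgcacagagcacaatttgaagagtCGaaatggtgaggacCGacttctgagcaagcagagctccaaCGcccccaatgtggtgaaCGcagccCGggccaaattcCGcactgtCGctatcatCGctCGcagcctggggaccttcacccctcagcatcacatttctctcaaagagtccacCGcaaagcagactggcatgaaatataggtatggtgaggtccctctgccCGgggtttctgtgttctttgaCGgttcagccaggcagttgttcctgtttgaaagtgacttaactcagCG
Kcnt1: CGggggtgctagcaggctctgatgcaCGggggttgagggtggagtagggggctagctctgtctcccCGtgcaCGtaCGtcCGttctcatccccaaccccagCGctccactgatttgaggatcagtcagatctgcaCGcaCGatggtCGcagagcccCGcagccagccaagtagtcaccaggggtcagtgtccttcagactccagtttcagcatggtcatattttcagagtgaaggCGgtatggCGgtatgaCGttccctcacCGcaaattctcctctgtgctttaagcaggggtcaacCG

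The Kcnab1 stretch lies 399 to 698 bases downstream of the start and holds 13 CG, all of them measured. Its level was 54.6% in KO against 8.98% in WT under excess folic acid, and 53.9% in KO against 8.28% in WT at 3 ppm, on 145 to 217 reads. All 13 CpGs were higher in KO at both diets. The CpG at 529 bases, for one, read 61.5% and 6.67% at 30 ppm, then 41.7% and 0% at 3 ppm. In the Kcna5 stretch 8 of 16 CG were measured, and the levels were 66.7% in KO against 15.1% in WT under excess folic acid and 80.9% and 21.7% at 3 ppm, with all 8 higher in KO at both diets. The Kcnt1 stretch stood at 45.3% and 11.1%, then at 42.0% and 16.1%, with 4 of its 7 measured CpGs higher in KO at both diets. These 3 genes were picked for large differences, so the levels of the stretches are a description.

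Among the Kv pore genes 5 of 28 start windows were called higher at both diets (17.9%, against 8.01% of all genes). Kcna5, which carries a delayed rectifier current in heart and vessels, stood at 47.1% in KO (36.8 to 57.6%) against 15.4% in WT (9.70 to 23.5%) under excess folic acid, and at 51.2% (42.6 to 59.7%) and 17.5% (12.1 to 24.5%) at 3 ppm. The KO and WT intervals did not overlap, and the adjusted p (Fisher's exact test) was 6.4e-05 at 30 ppm and 1.6e-07 at 3 ppm. With the robust SD Kcna5 was called at neither diet. Too few of its CpGs were measured for a test with 10 reads per CpG or within 500 bp of the start. Kcna6 followed with 46.4% and 19.2% at 30 ppm, then 56.0% and 28.8% at 3 ppm, read on only 7 of the 87 CpGs in its window. The Kcna6 call at 30 ppm was lost with thinned reads (28.6 points). Kcna1, an axonal low-threshold channel, read 29.1% and 13.4% and then 35.2% and 18.9%. Around the start of its principal transcript the Kcna1 difference was 3.96 points at 30 ppm and 2.79 at 3 ppm, and neither was called. With 10 reads per CpG the Kcna1 call at 30 ppm was lost as well (15.3 points). Kcnq1, which pairs with Kcne1 in heart and inner ear, read 56.8% and 42.8% and then 57.1% and 45.99%. In these 4 genes KO lay above WT at each diet, which follows from their being called higher at both.

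Other Kv pores were called at 1 diet. Kcnc1, a channel of fast-spiking neurons, was called at 30 ppm (47.3% in KO, 31.5% in WT) but read 47.3% and 44.9% at 3 ppm, and its call was lost within 500 bp of the start (12.5 points). Kcna2 was called at 3 ppm (28.4% and 11.7%) and read 23.9% and 16.8% at 30 ppm. That call was lost with thinned reads (12.1 points), within 500 bp of the start (7.94 points) and around the start of the principal transcript (6.88 points). Kcnq3, a subunit of the neuronal M-current, was called at 3 ppm (63.8% and 48.8%) and read 55.6% and 48% at 30 ppm, with its call lost under thinned reads (17.4 points). Whether the KO to WT difference changed with diet was tested directly, and no start window passed that test. Kcnh2, the cardiac ERG channel, was called at neither diet, with 42.0% and 32.3% at 30 ppm, then 40.3% and 31.5% at 3 ppm. The A-type pore Kcnd2 read 19.9% in KO against 19.6% in WT under excess folic acid, and 24.8% and 25.1% at 3 ppm.

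The auxiliary and silent Kv subunits had 4 of 11 and 3 of 10 start windows called at both diets (36.4% and 30%, against 8.01% of all genes). Kcnab1, a beta subunit that speeds the closing of Kv pores, had 24 of its 29 CpGs higher in KO at both diets. It stood at 57.9% in KO (52.6 to 63.1%) against 30.0% in WT (25.7 to 34.7%) under excess folic acid, and at 57.4% (52.9 to 61.8%) and 30.0% (25.5 to 34.9%) at 3 ppm, with adjusted p of 8.0e-12 and 5.5e-13 (Fisher's exact test). The other auxiliary subunits called at both diets were Kcnip2, Kcnip4 and Kcne1, and of the silent subunits Kcng4, Kcns1 and Kcns3. Kcng4 read 50.0% and 19.5% at 30 ppm, then 46.7% and 26.4% at 3 ppm, where the call was lost within 500 bp of the start (15.96 points). Kcns1 read 38.1% and 18.8% and then 48.7% and 15.2%.

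Kcnj4 had the largest difference of the potassium channel starts at each diet. The difference rests on 5 measured CpGs of the 147 that the window holds in the reference. These 5 gave 51.0% in KO (37.5 to 64.4%) against 6.90% in WT (2.71 to 16.4%) under excess folic acid, on 49 and 58 reads. At 3 ppm they gave 49.4% (38.9 to 59.9%) and 8% (3.15 to 18.8%), on 83 and 50 reads. Both KO values lay above both WT values, their intervals did not overlap, and the adjusted p was 9.2e-06 and 9.4e-06 (Fisher's exact test). With the robust SD the Kcnj4 start was called at neither diet. Within 500 bp of the start the difference at 30 ppm was 25.5 points and not called. Of the 15 inward rectifiers 3 were called at both diets (20%, against 8.01% of all genes). Beside Kcnj4 they were Kcnj15 (70.1% and 41.5%, then 63.3% and 39.1%) and Kcnj9, a subunit of the G protein-gated channels (66.98% and 48%, then 66.7% and 46.1%). The Kcnj15 call was lost at 30 ppm within 500 bp of the start (31.7 points) and at 3 ppm with 10 reads per CpG (23.2 points). Kcnj10, the main inward rectifier of astrocytes, was called at 30 ppm only (60.7% and 47.5%, against 56.5% and 48.3% at 3 ppm). Within 500 bp of the start KO minus WT was -4.04 points at 30 ppm, so this call rests on the outer part of the window, and as a mean of CpG levels the difference was 7.44 points. Kcnj2, the classical inward rectifier of muscle and brain, was called at 3 ppm only (22.6% and 12.4%, against 18.9% and 15.1% at 30 ppm), and within 500 bp of the start its difference at 3 ppm was 1.72 points. With thinned reads it was 9.40 points, also not called. Kcnj11, the pore of the ATP-sensitive channel, was called at neither diet, with 78.4% and 68.6% and then 76.2% and 72.5%.

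Of 12 tandem-pore genes 3 were called at both diets (25%, against 8.01% of all genes): Kcnk15, Kcnk9 and Kcnk10. Kcnk9, an acid-sensitive leak channel expressed from the maternal allele in brain, read 28.2% in KO (21.1 to 36.7%) against 6.93% in WT (3.40 to 13.6%) under excess folic acid, and 29.1% (22.7 to 36.4%) and 8.13% (4.48 to 14.3%) at 3 ppm. Within 500 bp of its start the difference was 7.12 and 12.2 points, and neither was called. At 3 ppm the Kcnk9 call was also lost with thinned reads (16.04 points). Kcnk15 read 47.0% and 25.7% and then 45.8% and 24.2%. By contrast the stretch-sensitive channel Kcnk2 was near 83% in each library, with 82.5% and 83.1% at 30 ppm, then 83.7% and 82.9% at 3 ppm. This window lies around base 189402273, the start of the gene record. The principal transcript of Kcnk2 starts at base 189343355, and levels there are not given. Of the 8 Kcnma, Kcnn, Kcnt and Kcnu pores, most of them opened by calcium or sodium, 2 were called at both diets (25%, against 8.01% of all genes). They were Kcnt1 (56.0% and 29.1%, then 60.7% and 27.9%) and its close relative Kcnt2 (46.5% and 27.8%, then 48.8% and 33.6%). Within 500 bp of the start the Kcnt1 difference at 30 ppm was 29.9 points and not called. Kcnma1, the pore of the large-conductance BK channel, read 84.4% and 83.2% and then 79.3% and 75.0%, and Kcnn2, a small-conductance pore, read 15.8% and 6.51% and then 18.1% and 16.3%. Neither was called, and none of the 4 BK beta subunits was, too few genes to set against the share of all genes. The Kcnma1 window too is that of the gene record, at base 24014491, while its principal transcript starts at base 24004205.

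**Figure D1:**
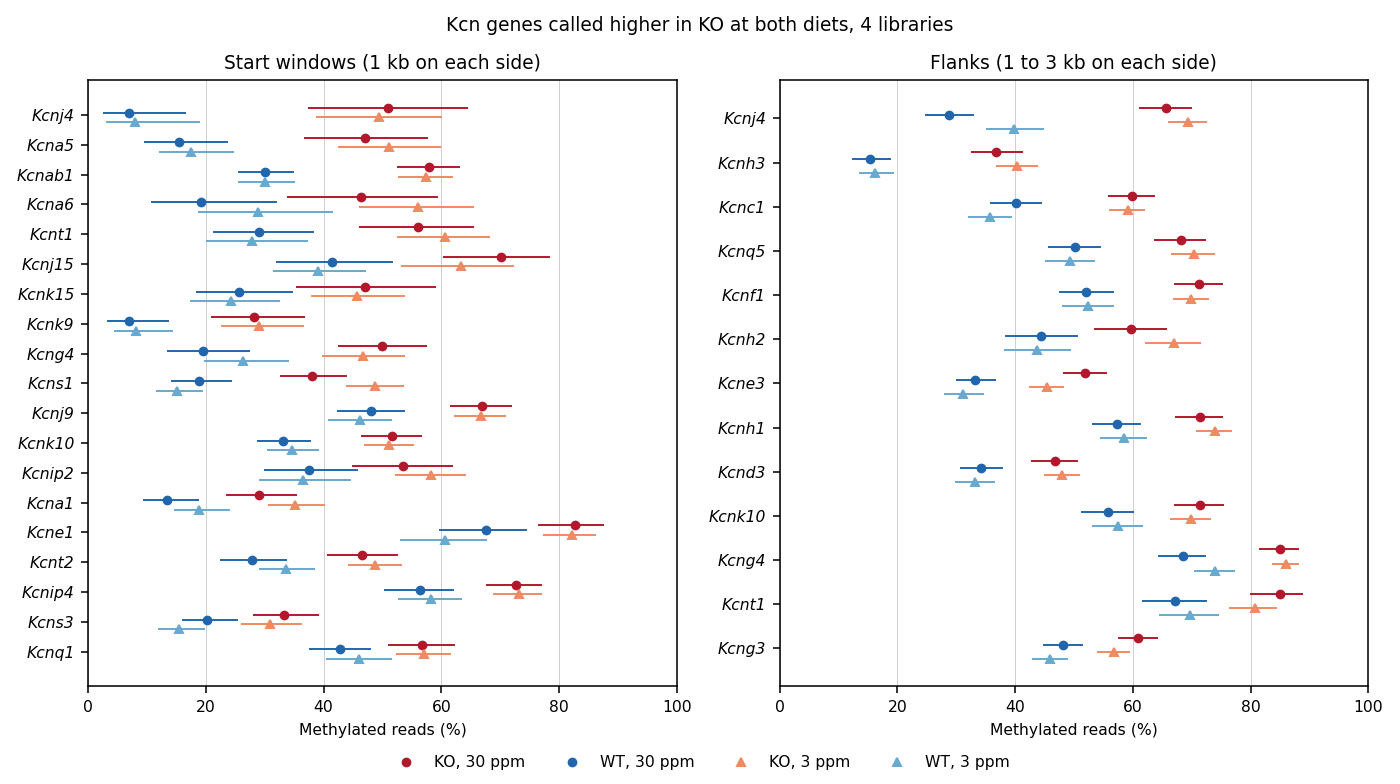
Methylation level in percent of reads (x axis) of potassium channel genes called higher in KO at both diets (y axis), all but 1 of the start windows in one panel and all flanks in the other. Each point is 1 library, with colour and shape giving genotype and diet, and each bar is the 95% Wilson interval of its reads. In the start panel Kcnj4 shows the widest gap, with both KO points near 50% and both WT points under 10%.

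The start windows differ in sequence, and the called genes came from every kind. By CpG content 48 of the 92 start windows were CpG-rich, 23 intermediate and 21 CpG-poor. CpG-rich meant a 500 bp stretch with an observed to expected CpG ratio over 0.75 and GC over 55%, and CpG-poor meant that no stretch passed a ratio of 0.48. Of the CpG-rich starts 8 of 45 were called at both diets (17.8%, against 8.82% of all genes of that class). The intermediate class had 8 of 23 (34.8%, against 14.0%) and the CpG-poor class 4 of 21 (19.0%, against 2.76%). In each class the median difference of the potassium channel genes was above that of all genes. It was 7.56 points against 4.55 at 30 ppm in CpG-rich starts, 9.24 against 5.28 in intermediate ones and 3.66 against 2.19 in CpG-poor ones.

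The start windows of other channel and receptor families also had higher median levels in KO. Of 39 sodium, calcium and HCN channel genes 4 start windows were called at both diets (10.3%), and of 41 glutamate and GABA receptor genes 7 were (17.1%), beside 8.01% of all genes. At 30 ppm the start windows of these families were called at 15.4% and 31.7%, beside 30.3% of the potassium channel genes, and at 3 ppm at 28.2% and 31.7%, beside 37.1%. Their median start differences were 6.41 and 5.90 points at 30 ppm and 6.52 and 8.85 at 3 ppm. In the flanks 6 of 43 (13.95%) and 3 of 43 (6.98%) were called at both diets, beside 3.5% of all genes. The flank shares at 30 ppm, 25.6% and 32.6%, were above the 18.5% of the potassium channel genes, and those at 3 ppm, 23.3% and 16.3%, were below their 28.3%. The 3 families were not tested against each other.

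Across the region around the start, the difference was widest downstream of it. In bins of 250 bp the mean CpG level in WT of the potassium channel genes was lowest between 250 and 500 bp downstream, at 22.5% at 30 ppm and 23.5% at 3 ppm, where KO read 31.8% and 31.7%. Between 1250 and 1500 bp downstream KO stood at 62.0% and WT at 48.3% at 30 ppm, a difference of 13.7 points, and the next bin had the largest difference at 3 ppm, 14.0 points. Over all genes no bin within 5 kb exceeded 7.24 points at 30 ppm and 6.22 at 3 ppm. Upstream, the bins from 1 to 3 kb before the start differed by 2.82 to 7.23 points in the potassium channel genes.

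**Figure D2:**
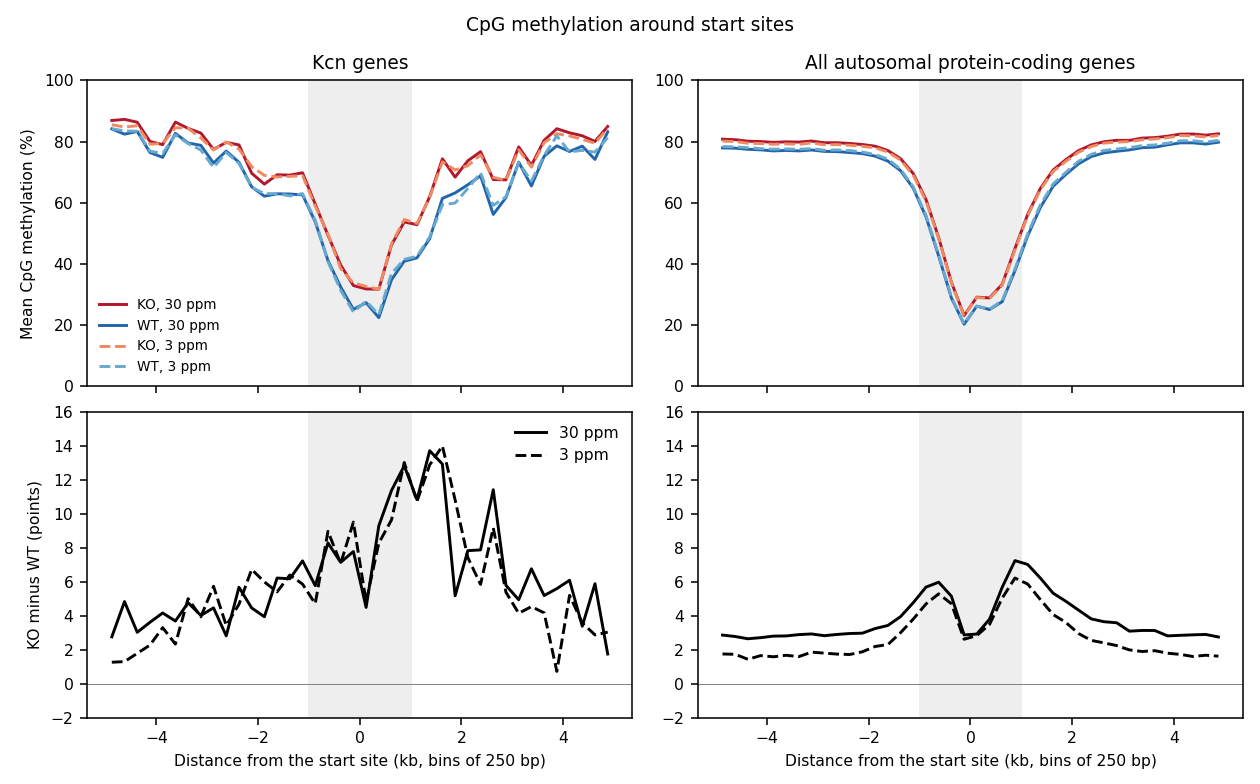
Mean CpG methylation in percent of each library (upper panels, y axis) and KO minus WT in percentage points at each diet (lower panels, y axis) by distance from the start site in kb (x axis), in bins of 250 bp, for potassium channel genes (left) and all genes (right), with the start window shaded. The potassium channel difference reaches 13.7 points at 30 ppm and 14.0 at 3 ppm downstream of the start, and that of all genes at most 7.24 and 6.22.

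The flanks carried a similar pattern at higher levels. At 30 ppm 17 of 92 flanks were called higher in KO (18.5%, where 9.5% of all genes were called), and at 3 ppm 26 of 92 (28.3%, where 7.05% of all genes were called). At both diets 13 of 92 were (14.1%, against 3.5% of all genes). The median difference was 4.76 points at 30 ppm and 6.36 at 3 ppm, beside 3.01 and 1.69 over all genes. KO lay above WT at both diets in 67 genes (72.8%, against 56.9% of all genes) and below at both in 7 (7.61%, against 10.7%). With the test statistic divided by its robust SD, 12 and 13 flanks were still called, or 13.0% and 14.1% of the potassium channel genes against 2.61% and 1.92% of all genes. Of 3391 flank CpGs 1297 (38.2%) were higher in KO at both diets and 365 (10.8%) lower, where 28.1% and 13.4% of all flank CpGs were.

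Kcnj4 led again, with flanks at 65.7% in KO (61.2 to 69.9%) against 28.7% in WT (24.9 to 32.9%) under excess folic acid, and 69.4% (66.1 to 72.5%) and 39.9% (35.3 to 44.7%) at 3 ppm. The adjusted p was 2.3e-26 and 5.2e-20 (Fisher's exact test). Of the Kv pores 6 of 29 were called at both diets (20.7%, against 3.5% of all genes). Kcnh3, a forebrain channel of the ether-à-go-go group, read 36.8% and 15.4% at 30 ppm, then 40.3% and 16.2% at 3 ppm. Kcnc1 read 59.9% and 40.1% and then 59.1% and 35.7%. Around the start of its principal transcript the flank difference at 3 ppm was 7.64 points and not called, and the start difference at 30 ppm was 33.4 points, so the split of Kcnc1 between start and flanks depends on the annotated start. With 10 reads per CpG neither flank call remained (17.0 and 15.1 points). The M-current subunit Kcnq5 read 68.2% and 50.1% and then 70.4% and 49.3%. Kcnh2, whose start was not called, read 59.8% and 44.4% in its flanks and then 67% and 43.7%. Its call at 30 ppm was lost with 10 reads per CpG (16.7 points), with the robust SD and in the downstream flank alone (7.85 points, against 27.1 upstream). In the upstream flank alone Kcnq5 was not called at 30 ppm (9.18 points) and Kcnh1 at neither diet (8.66 and 6.43 points). Kcnh1 and the A-type pore Kcnd3 completed the Kv pores.

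Of the silent subunits Kcnf1, Kcng3 and Kcng4 were called in the flanks at both diets. Kcnf1 read 71.3% and 52.1% at 30 ppm, then 69.9% and 52.4% at 3 ppm. With 10 reads per CpG its difference was 2.27 and 8.09 points and in the upstream flank alone 0.10 and 2.09 points, with no call at either diet. The auxiliary subunit Kcne3 read 51.8% and 33.2% and then 45.4% and 31.2%. Its downstream flank alone differed by 26.8 and 22.1 points, and its upstream flank by 1.21 and -2.18 points. The others were Kcnk10 (71.4% and 55.7%, then 70.0% and 57.5%) and Kcnt1 (85.0% and 67.2%, then 80.7% and 69.8%). The Kcnt1 flank values depend on the annotated start: from the start of its principal transcript they differed by -2.96 points at 30 ppm and 0.88 at 3 ppm, with no call. The upstream flank of Kcnt1 alone was not called either (5.81 and 1.43 points). Its call at 3 ppm was also lost with 10 reads per CpG (12.5 points) and with thinned reads (9.33 points). Start windows and flanks were both called at both diets in Kcng4, Kcnj4, Kcnk10 and, with the limits given for its flanks, Kcnt1, 4 of 92 genes beside 143 of all 20807. At least 1 of the 2 regions was called at both diets in 29 of the 92 genes, beside 2164 of all 20807.

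The flanks of Kcna1 were called lower in KO at 3 ppm (0.128% of all genes were called lower), at 35.1% in KO against 51.9% in WT. By Fisher's exact test no other potassium channel gene was called lower in any region at either diet. At 30 ppm the flanks read 43.3% and 40.8%. The direction at 3 ppm came from pooling reads over 19 CpGs of unequal depth and level. KO was higher by 3.23 points in the upstream flank alone, by 2.79 in the downstream flank alone, by 2.50 as a mean of CpG levels and by 18.9 around the start of the principal transcript.

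Gene bodies differed less. The median body stood at 86.5% in KO against 83.9% in WT under excess folic acid, and at 85.4% and 84.3% at 3 ppm. Bodies of 3 of 89 genes were called higher in KO at 30 ppm (3.37%, where 2.0% of all genes were called) and of another 3 at 3 ppm (where 1.75% were called). None was called at both diets, where 0.838% of all genes were. At 30 ppm they were Kcnj4 (89.0% and 78.0%), Kcnk15 (73.0% and 56.6%) and Kcnk16 (90.2% and 77.2%). At 3 ppm they were Kcna1 (62.4% and 46.8%), Kcnab3 (71.3% and 61.1%) and Kcnj11 (81.5% and 70.9%). Beyond 3 kb from the start of its principal transcript the Kcna1 difference was 0.95 points, and over its whole span that of Kcnj11 was 6.45 points, neither of them called. Of 61916 body CpGs 14469 were higher in KO at both diets (23.4%, against 22.5% over all bodies) and 12018 lower (19.4%, against 17%).

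The model that let embryos vary was limma on log2 of methylated over unmethylated reads, with genotype and diet as terms over all 4 libraries. It has 1 residual degree of freedom beside a prior taken from the spread over all genes of a region. That prior counted for 5.72 degrees of freedom at the start, 87.02 in the flanks and 15.38 in the bodies. Its p-values therefore lean on variance pooled over genes, and those of different regions are not comparable. The model called 20 of 89 start windows, all higher in KO (22.5%, where 7.5% of all genes were called), 26 of 92 flanks, 25 of them higher and Kcna4 lower (12.5% of all genes were called), and 13 of 89 bodies, all higher (8.25% of all genes were called). At the start the Kcnj4 log2 ratio was 3.36 higher in KO (adjusted p = 0.026 in limma). The Kcna4 flanks had a log2 ratio of -0.76 (adjusted p = 0.020 in limma), and those of Kcna1 were not called (adjusted p = 0.25). The lowest adjusted p of any potassium channel start was 0.026, and that of the flanks 5.2e-10, again at Kcnj4, where the log2 ratio was 2.00 higher.

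Between the diets of one genotype few potassium channel genes differed. No start window and no body was called between 30 and 3 ppm in either genotype. Of all start windows 0.346 to 0.632% were called in each direction and genotype, and of all bodies 0.0499 to 0.122%. In the KO flanks Kcne2, an auxiliary subunit of Kcnq1 and Kcnh2 channels, was higher at 30 ppm (88.5% against 77.7%, adjusted p = 1.2e-05 by Fisher's exact test), where 0.26% of all genes were called higher. Kcns3 was lower there (61.6% against 72.7%, adjusted p = 0.015 by the same test), where 0.191% of all genes were. In the WT flanks Kcnj4 was lower at 30 ppm (28.7% against 39.9%, adjusted p = 0.048 by the same test), where 0.427% of all genes were. The Kcnj4 call was lost with thinned reads (-11.04 points). As means of CpG levels the Kcne2, Kcns3 and Kcnj4 differences were 9.003, -5.39 and -5.56 points. Each was smaller than 10 points in size, and means of CpG levels were not tested. In the upstream flank alone no potassium channel gene was called by diet in KO, where 0.207% of all genes were. With 10 reads per CpG, with the robust SD and in the downstream flank alone 1 was called each time, where 0.108 to 0.401% of all genes were. The median diet difference was -0.27 points in KO and -0.54 in WT at the start, -0.10 and 0.53 in the flanks, and 0.82 and -0.66 in the body. Over all genes it was 0.32 and -0.08 at the start, 0.60 and -0.61 in the flanks, and 0.52 and -0.59 in the body.

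**Figure D3:**
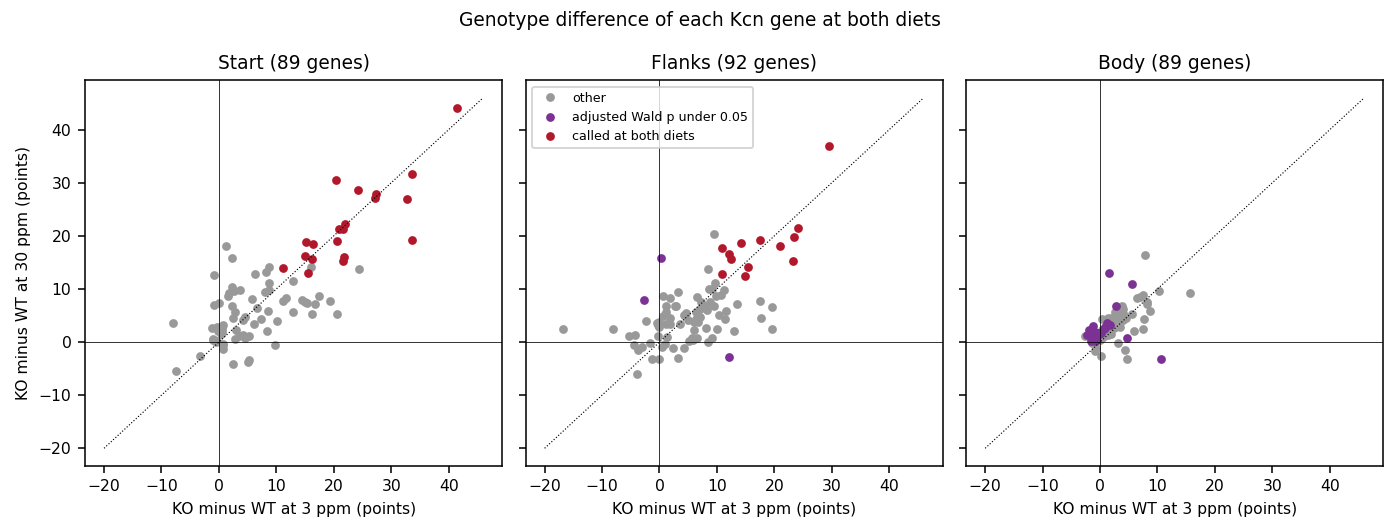
KO minus WT in percentage points at 30 ppm (y axis) against the same at 3 ppm (x axis) for each potassium channel gene, in separate panels for start windows, flanks and bodies, with genes called higher at both diets in red, genes past the Wald test in purple, the others in grey and equality as a dotted line. Most points of the start and flank panels lie above 0 on both axes, and Kcnj4 lies farthest out in both.

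Whether the KO to WT difference changed with diet was tested with a Wald test of the 2 log odds ratios. No start window passed (1.35% of all genes did). In the flanks 3 of 92 passed (1.58% of all genes did): Kcne2, Kcnk1 and Kcna3. Kcne2 differed between KO and WT by 15.8 points at 30 ppm and by 0.21 at 3 ppm, while Kcnk1, a tandem-pore channel, differed by -2.87 and 12.0 points. In the bodies 29 of 89 passed (32.6%, where 15.0% of all genes did, 20 of 43 other cation channels and 23 of 43 glutamate and GABA receptor genes), 27 with a larger KO minus WT difference at 30 ppm and 2 at 3 ppm. The median size of these changes was 1.94 points. A body with more reads can pass at a smaller change, and the median potassium channel gene was 32.2 kb long, against 17.6 kb for all genes. The part of gene length in this share was not tested. Over all bodies the median KO minus WT difference was also larger at 30 ppm, 1.65 points against 0.523 at 3 ppm. In the potassium channel genes it was 2.33 and 1.06. The split by direction was not counted over all genes. Kcnip4, read on 90031 to 142702 reads, stood at 86.6% in KO against 85.5% in WT under excess folic acid, and at 85.6% and 86.7% at 3 ppm. After the Wald statistic was divided by its robust SD, a step chosen after seeing the data, 1 flank passed (1.09%, where 0.108% of all genes did) and 9 bodies (10.1%, where 3.2% of all genes did).

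The authors also deposited lists of regions more methylated in KO than in WT at each diet, as positions called from single libraries. Within the gene span and 3 kb on each side, 36 of 92 potassium channel genes overlapped such a region at 30 ppm (39.1%, where 12.6% of all genes did) and 35 at 3 ppm (38.0%, where 13.1% did), and 28 at both diets (30.4%, where 7.82% did). In the start window the numbers were 9 at 30 ppm (2.91% of all genes) and 13 at 3 ppm (3.55% of all genes). None overlapped a region less methylated in KO, where 0.12% of all genes did at 30 ppm and 0.0817% at 3 ppm. The median potassium channel gene was 32.2 kb long, against 17.6 kb for all genes, and the part of length in these shares was not tested. Regions of the 2 diets shared 25 stretches of at least 100 bp in 20 potassium channel genes, a count that was not made over all genes. The 21 of them with at least 3 measured CpGs ranged in KO from 38.3 to 90.9% at 30 ppm and from 32.8 to 92.3% at 3 ppm, and in WT from 3.67 to 50.0% and from 2.99 to 53.9%.

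Sequence is given for 4 of these stretches outside the start windows, picked by their number of measured CpGs, because they show where in the gene the regions listed at both diets lie. Each is 300 bases of the shared stretch, clear of untranslated exon sequence, on the strand of its gene, with every CG in capitals (GRCm38, 5′ to 3′). The Kcnc1 stretch is chr7:46397820-46398119 (plus strand, touching an exon, 1323 bases downstream of the start) and that of Kcnip1 is chr11:33680366-33680665 (minus strand, intron). The Kcnj4 stretch is chr15:79493642-79493941 (minus strand, intron, 11300 bases downstream of the start), and that of Kcng4 is chr8:119632909-119633208 (minus strand, touching an exon, 2472 bases downstream).
Kcnc1: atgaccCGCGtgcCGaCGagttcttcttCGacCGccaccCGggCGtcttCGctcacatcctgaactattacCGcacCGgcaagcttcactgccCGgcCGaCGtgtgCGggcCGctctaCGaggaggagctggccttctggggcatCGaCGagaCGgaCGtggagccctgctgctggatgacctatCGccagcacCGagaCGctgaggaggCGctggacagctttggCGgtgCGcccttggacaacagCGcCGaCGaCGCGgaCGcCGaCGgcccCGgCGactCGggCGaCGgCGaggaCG
Kcnip1: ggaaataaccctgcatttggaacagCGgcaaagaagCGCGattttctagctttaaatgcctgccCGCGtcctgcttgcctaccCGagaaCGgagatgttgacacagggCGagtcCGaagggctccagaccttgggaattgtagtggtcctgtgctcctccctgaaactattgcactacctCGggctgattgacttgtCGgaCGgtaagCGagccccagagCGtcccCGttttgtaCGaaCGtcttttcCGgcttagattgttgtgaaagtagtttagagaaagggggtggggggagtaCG
Kcnj4: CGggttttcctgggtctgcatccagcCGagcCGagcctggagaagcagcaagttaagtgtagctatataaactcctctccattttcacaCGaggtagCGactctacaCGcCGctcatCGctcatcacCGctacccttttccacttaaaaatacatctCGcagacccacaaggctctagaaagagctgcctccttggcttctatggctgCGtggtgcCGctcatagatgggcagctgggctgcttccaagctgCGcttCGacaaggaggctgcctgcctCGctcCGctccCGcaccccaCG
Kcng4: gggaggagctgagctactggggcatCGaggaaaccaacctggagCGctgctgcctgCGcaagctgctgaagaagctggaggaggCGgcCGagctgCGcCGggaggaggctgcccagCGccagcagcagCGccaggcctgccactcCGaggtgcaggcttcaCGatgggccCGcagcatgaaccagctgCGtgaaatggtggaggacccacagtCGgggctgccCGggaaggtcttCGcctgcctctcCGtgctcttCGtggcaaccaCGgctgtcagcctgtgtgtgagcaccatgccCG

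The Kcnc1 stretch holds 42 CG, of which 33 were measured and 29 were higher in KO at both diets. Its level was 46.8% in KO against 11.4% in WT under excess folic acid and 47.95% and 9.82% at 3 ppm. The Kcnip1 stretch, deep in the gene of a KChIP subunit that binds Kcnd pores, stood at 56.1% and 10.8% and then at 42.6% and 1.67%, with 17 of 19 CpGs higher in KO at both diets. The intronic Kcnj4 stretch was at 88.6% and 43.2% and then at 83.8% and 51.1%, and the Kcng4 stretch at 82.9% and 30.1% and then at 81.3% and 52.1%. At Kcnj8, a pore of vascular ATP-sensitive channels, the shared stretch of 19 CpGs stood at 45.2% and 4.02% and then at 32.8% and 2.99%. It begins 936 bases downstream of the start, and most of it lies beyond the start window, in the flanks. The Kcnj8 start window was called at neither diet (14.2% and 6.11%, then 12.7% and 6.92%), and its flanks were called at 30 ppm only. The lists were made from the same libraries, so these levels describe the regions and do not test them. One region of the diet comparison in KO lay in the body of Kcnq3 (0.385% of all genes overlapped such a region), at 50.7% at 30 ppm and 11.6% at 3 ppm in KO, and at 19.5% and 25.9% in WT.

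**Figure D4:**
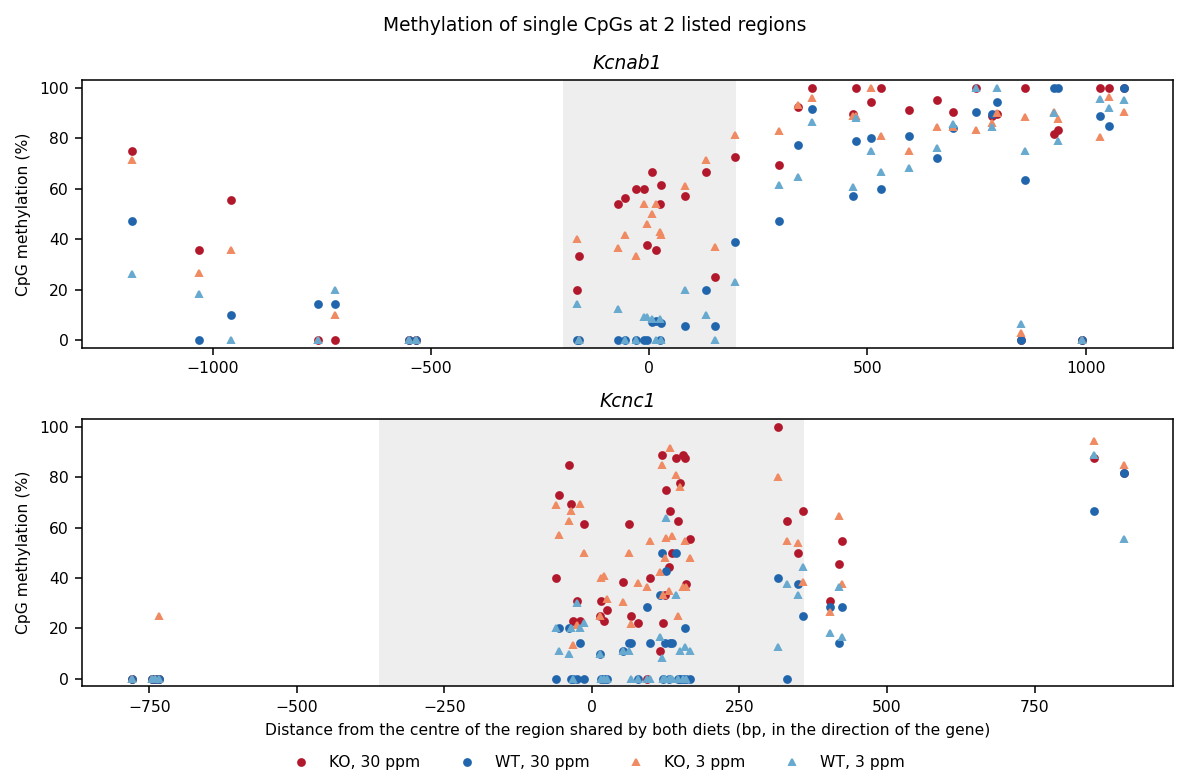
Methylation level in percent (y axis) of single CpGs by distance in bp from the centre of the region (x axis), at a listed region of Kcnab1 and of Kcnc1, with 1 point per CpG and library. The shaded band is the region shared by both diets. Within it the KO libraries lie above WT of their diet at most CpGs, as in the sequenced part of the Kcnc1 region, where 29 of 33 did so at both diets.

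Of the potassium channel genes, Kcnq1 contains the start of the imprinted transcript Kcnq1ot1 and Kcnk9 lies near the imprinted Peg13. The start window of Kcnq1ot1 read 54.4% in KO against 59.3% in WT under excess folic acid and 59.1% and 53.0% at 3 ppm. That of Peg13 read 57.3% and 64.0% and then 63.0% and 53.7%. At both windows KO lay below WT at 30 ppm and above WT at 3 ppm.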

How the data were processed

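The authors trimmed reads with Trim Galore 0.6.10, aligned them to mm10 (GRCm38) with Bismark 0.23.1, removed duplicates and merged both strands of a CpG. Their deposited files give, per CpG, the methylated fraction and the read count, and lists of regions per comparison. Fraction times read count gave whole methylated reads, which were summed per region. Genes came from GENCODE vM21. Fisher's exact test and a Wald test on the summed reads (SciPy 1.17.1; 0.5 added to each count in the Wald test) and limma 3.58.1 on log2((methylated + 1)/(unmethylated + 1)) were adjusted over all autosomal protein-coding genes of a region. Each group has 1 library, so p-values rest on reads of single embryos. Fisher's exact test on start windows was tried on simulated libraries with independent reads, so dependent reads and differences between embryos were not simulated. The Wald test, limma, flanks and bodies were not simulated. Alternatives were 10 reads per CpG, thinned reads, a robust SD, thresholds of 5 and 20 points, other windows and starts, means of CpG levels and CpGs that look like sequence differences left out. Genes were named by size among those called at both diets (10 for starts, 8 for flanks), with those called lower, by diet or by the Wald test (at most 4), and a list of well-known channels named whatever their values. Kcns1, Kcnj9, Kcnt2, Kcnj8 and other genes given outside this rule were chosen after their values were seen. Some genes and sequences are not reported here. The genes, lists and tests were chosen with earlier results of these data known.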

Additional observations from a re-analysis of the deposited data

Results flagged for a closer look

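The 7 potassium channel genes below were flagged among those where the difference between KO and WT changed with diet. The test was the Wald test of the 2 log odds ratios (all 4 libraries, adjusted over all genes). In the flanks the KO minus WT difference at 30 ppm less that at 3 ppm was 15.54 points for Kcne2, -14.9 for Kcnk1 and 10.73 for Kcna3. In the gene bodies it was 2.218 points for Kcnip4, 2.308 for Kcnd2, 1.717 for Kcnma1 and 1.835 for Kcnq5. The adjusted p of the Wald test was 4.0e-05 for Kcne2, 0.0047 for Kcnk1 and 0.045 for Kcna3. The 3 flanks are all that passed of 92 (1.58% of all genes did). The 4 bodies are those with the smallest p of 29 that passed of 89 (32.6%, where 15.0% of all genes did). The part of gene length in that share was not tested. With the Wald statistic divided by its robust SD, 1 flank and 9 bodies passed, where 0.108% and 3.2% of all genes did. Each of these rests on 1 embryo per group.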

How the results depend on the processing

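The counts below are potassium channel genes called, with the reported count first and, in brackets, their share of those tested beside the share of all genes under the same setting. Start windows at 30 ppm numbered 27 of 89 (30.3%, 15.4%) and became 16 of only 65 tested with 10 reads per CpG (24.6%, 13.8%), 2 with the statistic divided by its robust SD (2.25%, 2.11%), 10 at 20 points (11.2%, 3.75%) and 14 of only 72 tested within 500 bp (19.4%, 7.39%). At 3 ppm the 33 (37.1%, 16.6%) became 14 (21.5%, 14.4%), 3 (3.37%, 1.94%), 16 (18.0%, 3.83%) and 20 (27.8%, 10.1%) in the same order. Flanks at 30 ppm numbered 17 (18.5%, 9.5%) and became 28 at 5 points (30.4%, 19.8%), 3 at 20 points (3.26%, 0.614%) and 26 in the downstream flank alone (28.3%, 12.4%). At 3 ppm the 26 (28.3%, 7.05%) became 15 with 10 reads (17.2%, 5.08%), 13 with the robust SD (14.1%, 1.92%), 45 at 5 points (48.9%, 16.8%), 5 at 20 points (5.44%, 0.52%) and 15 in the upstream flank (16.3%, 4.56%). Bodies at 30 ppm numbered 3 (3.37%, 2.0%) and became 5 with thinned reads (5.62%, 1.94%), 1 with the robust SD (1.12%, 0.544%), 18 at 5 points (20.2%, 8.03%), 0 at 20 points (0.277% of all) and 7 over the whole span (7.61%, 3.53%). At 3 ppm the 3 (3.37%, 1.75%) became 0 with the robust SD (0.655% of all), 12 at 5 points (13.5%, 5.75%) and 0 at 20 points (0.333% of all). The 2 diet calls in KO flanks became 1 with 10 reads, 1 with the robust SD, 0 at 20 points, 0 upstream and 1 downstream, where 0 to 0.401% of all genes were called. The 1 in WT became 0 with 10 reads, thinned reads, the robust SD or 20 points, and 3 at 5 points (3.26%, 1.11%). A variance trend in limma, chosen after seeing the data, called 31 start windows (34.8%, 14.7%), 31 flanks (33.7%, 14.7%) and 23 bodies (25.8%, 13.7%). The Wald count with its robust SD, also chosen after seeing the data, was 1 in flanks (1.09%, 0.108%) and 9 in bodies (10.1%, 3.2%). Signs turned for Kcna1 flanks at 3 ppm (18.9 from the principal start, 3.23 upstream, 2.79 downstream, 2.50 as a mean of CpG levels), Kcne3 flanks at 3 ppm (-2.18 upstream), Kcnj4 flanks by diet in WT (0.16 downstream), Kcnj10 start at 30 ppm (-4.04 within 500 bp) and Kcnt1 flanks at 30 ppm (-2.96 from the principal start). The causes were not tested beyond the construction of each setting. The median KO minus WT difference lay between 5.57 and 8.32 points at the start, 3.91 and 5.81 in the flanks and 1.69 and 2.67 in the bodies at 30 ppm, and between 4.74 and 7.12, 5.01 and 6.60, and 0.48 and 1.40 at 3 ppm. The body median at 3 ppm moved most for its size, from 1.06 to 0.48 with 10 reads. No paired analysis was possible because the labels name no pairs of embryos and each group has 1 library, so diet as a term in limma was the only block that could be fitted. No replicate could be left out within a group.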
